A study of Homo sapiens with 4 samples.

Results

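The ERK output and feedback genes are 9 genes, SPRY1, SPRY2, SPRY4, SPRED1, SPRED2, ERRFI1, PHLDA1, ETV4 and ETV5, out of 23459 genes listed in the count files. They were picked by name, as the rows whose NCBI Gene identifier carries one of these symbols in the RefSeq gene table, and all 9 were found. They were measured by RNA-Seq in hTERT RPE-1 cells, a wild-type human line of retinal pigment epithelium immortalized with telomerase. In every sample the cells had been arrested in G0/G1 by 48 h in medium with 0.1% fetal bovine serum and antibiotics, and were then exposed to 200 μM merbarone, a catalytic inhibitor of type II DNA topoisomerases (TOP2). There were 2 biological replicates after 4 h and 2 after 8 h, with 1 library each. All values come from this single line, and untreated or DMSO-treated cells were not analysed here, so every change is a step from 4 h to 8 h and cannot be told apart from the longer stay in low serum.

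ERK is the last kinase of the RAS-RAF-MEK-ERK cascade, which carries signals from growth factor receptors to the nucleus. Active ERK raises the transcription of a small group of genes, and several of these encode brakes on the cascade, so their RNA is widely read as a record of recent ERK output. Sprouty proteins (SPRY) dampen signalling between receptors and RAF, SPRED proteins bring the RAS inactivator neurofibromin to the membrane, and ERRFI1 (also called MIG6) binds and inhibits receptors of the EGF receptor family. PHLDA1, a pleckstrin homology-like protein, and the PEA3-type ETS transcription factors ETV4 and ETV5 are outputs of the same pathway. Only RNA was measured, and the activity of ERK itself was not.

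The libraries held 8064450 to 10324697 counted reads, and 12559 genes with a CPM (counts scaled to library size) above 1 in 2 or more libraries were tested. All 9 genes passed this filter. The identity of the cells was checked with fixed markers. Of 10 genes of retinal pigment epithelium, 5 were kept by the filter (PMEL, MITF, OTX2, KRT8 and KRT18). Of these, PMEL was near the floor, with 7 to 12 counts per library. RPE65, BEST1, RLBP1, TYR and TYRP1 had between 0 and 7 counts in any library. The visual cycle and most of the pigment genes that define the mature tissue were thus near 0. Markers of other cell types (PTPRC, EPCAM, PECAM1, CDH5, CD3E and ALB) were also at 8 counts or fewer in every library.

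The 3 genes whose change passed the test are shown here by the 250 bases upstream of their most upstream RefSeq start, since this is the sequence next to which their transcription begins. ERRFI1 lies at chr1:8026310-8026559, PHLDA1 at chr12:76031777-76032026 and SPRY2 at chr13:80341127-80341376, all on the minus strand of GRCh38.p14. Each is printed 5′ to 3′ along the gene, and capitals mark the ETS core CCGGAA on either strand.
ERRFI1: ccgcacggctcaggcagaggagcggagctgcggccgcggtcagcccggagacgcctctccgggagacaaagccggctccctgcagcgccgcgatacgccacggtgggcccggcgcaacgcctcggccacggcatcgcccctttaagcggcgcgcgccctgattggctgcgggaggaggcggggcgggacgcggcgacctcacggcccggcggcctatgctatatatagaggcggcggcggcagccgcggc
PHLDA1: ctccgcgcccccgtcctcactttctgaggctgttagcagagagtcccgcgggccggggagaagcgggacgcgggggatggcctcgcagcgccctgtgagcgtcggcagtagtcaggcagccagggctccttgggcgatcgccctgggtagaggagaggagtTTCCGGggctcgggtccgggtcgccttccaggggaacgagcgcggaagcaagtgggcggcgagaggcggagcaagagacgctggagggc
SPRY2: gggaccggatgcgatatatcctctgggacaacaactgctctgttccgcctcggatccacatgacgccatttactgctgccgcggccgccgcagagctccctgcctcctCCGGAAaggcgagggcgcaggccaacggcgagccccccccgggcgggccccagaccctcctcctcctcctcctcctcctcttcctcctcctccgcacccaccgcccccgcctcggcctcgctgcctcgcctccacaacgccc
The ERRFI1 stretch held no ETS core, and the PHLDA1 and SPRY2 stretches each held 1. So did a window of SPRY1, which did not pass the test, so that 3 of the 11 windows available for these genes held the core. The 3 stretches shown were rich in G and C, at 75.2% for ERRFI1 and 70.4% for PHLDA1 and for SPRY2. The core is common, being found in 27.05% of the 14859 RefSeq start windows of tested genes (300 bases, 250 before and 50 after the start), and the search for it was added after seeing the data.

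Other motifs of factors tied to ERK were rare in these windows. Of the 9 genes, 7 had a start window in the table, 11 windows in all, and ETV4 and ETV5 had none. The AP-1 site TGANTCA was in 1 of the 11 windows, at the downstream start of SPRED2, against 5.16% of the windows of tested genes. The full ETS site CCGGAAGT, the CRE TGACGTCA, the CIC sites TGAATGAA and TGAATGGA and the CArG box of SRF were in none of the 11, on either strand. These motifs were in 7.49%, 2.82%, 1.2%, 0.67% and 1.18% of the windows of tested genes, in the same order. 

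Between 4 h and 8 h, 1 of the 9 genes fell strongly, 2 rose modestly, and 6 did not pass the test. ERRFI1 fell 2.41-fold, PHLDA1 rose 1.36-fold and SPRY2 rose 1.24-fold. The test was edgeR's quasi-likelihood test over all 12559 genes, with a Benjamini-Hochberg adjusted p below 0.05. Among all genes tested, 38.8% passed, 19.9% as higher (2500 genes) and 18.8% as lower (2367 genes) at 8 h, so that 3 of 9 is close to the share over all genes. Scaled by library size alone, without TMM, 1698 of all genes were higher and 3289 lower, and the same 3 of the 9 genes passed in the same directions. A DEG also needed an absolute log2 fold change above 1, as 5.33% of all genes had, 1.45% as higher and 3.88% as lower. ERRFI1 was the single DEG of the 9.

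**Figure D1:**
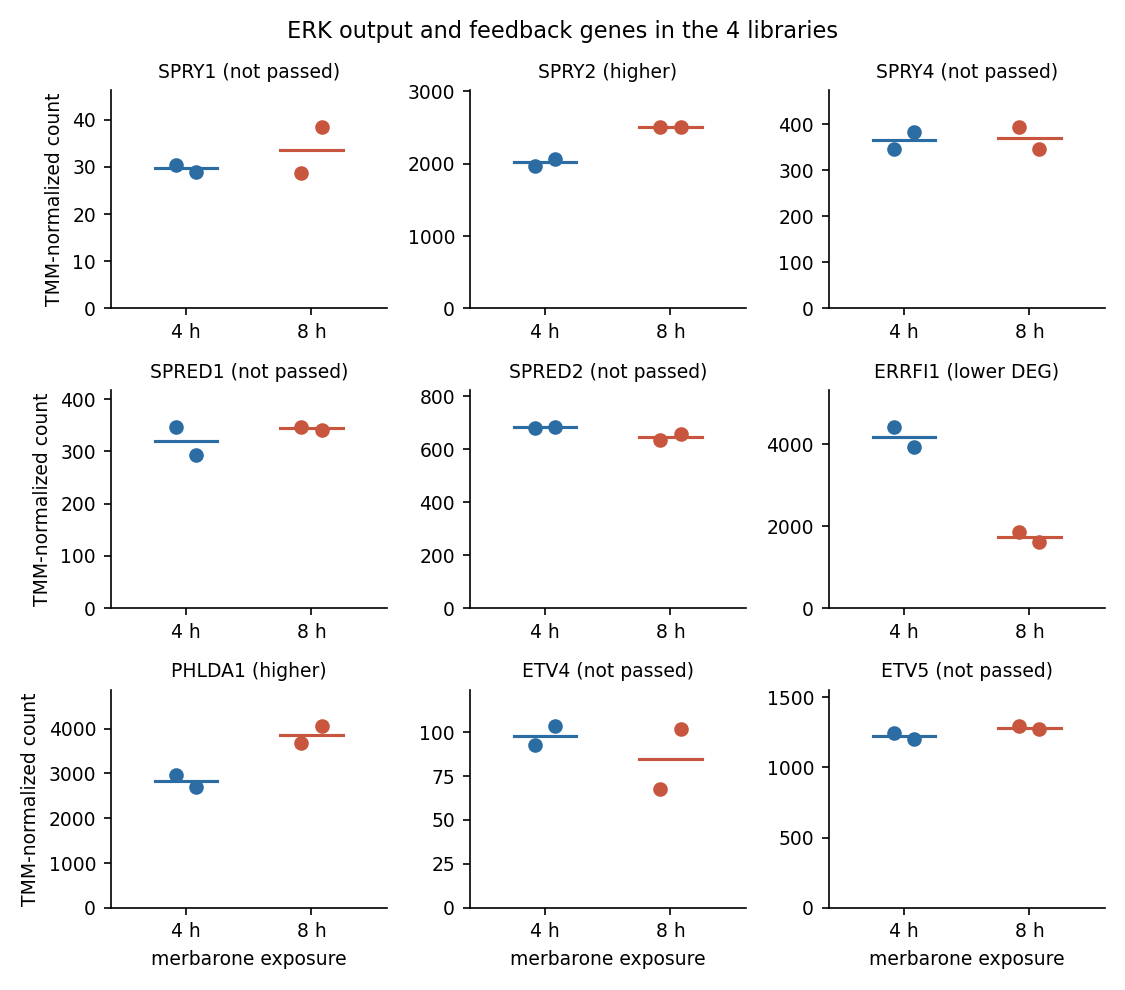
TMM-normalized counts (reads scaled to the mean effective library size, linear axis from 0) of the 9 genes in each library, with points for the 2 libraries of each time and lines for their mean. ERRFI1 fell from a mean of 4182 to 1735, PHLDA1 and SPRY2 rose with no overlap between the times, and SPRY1, SPRY4, SPRED1 and ETV4 overlapped.

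ERRFI1 (chromosome 1, 8064464 to 8086369, minus strand, hg19) binds the kinase domain of the EGF receptor and its relatives and shuts it off. Its normalized count, meaning reads corrected by TMM for library size and composition, reached 4428 in replicate 1 and 3937 in replicate 2 of 4 h, but only 1864 in replicate 1 and 1607 in replicate 2 of 8 h. Both 8 h libraries lay far below both 4 h libraries, and the replicates of each time were close. The log2 fold change was −1.27 (standard error 0.09, edgeR adjusted p = 2.5e-09), with a 95% interval from −1.45 to −1.09. Of the 12559 genes, 255 had a log2 fold change at or below that of ERRFI1, which is 2.03%. Tested against a threshold of 1 in place of 0, however, its fall did not pass (edgeR glmTreat, adjusted p = 0.075). Leaving out a library in turn gave log2 fold changes from −1.38 to −1.17.

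PHLDA1 (chromosome 12, 76419227 to 76425556, minus strand, hg19), whose protein carries a pleckstrin homology-like domain, moved the other way. The 4 h replicates had 2971 and 2687 normalized counts, and the 8 h replicates 3674 and 4052. Both 8 h libraries were above both 4 h libraries, with a gap larger than the distance between replicates. The log2 fold change was 0.45 (standard error 0.08, edgeR adjusted p = 0.000177), with an interval from 0.28 to 0.61, short of the threshold for a DEG. Its rise passed in each fit that left out a library, with adjusted p of at most 0.0161.

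SPRY2 (chromosome 13, 80910111 to 80915261, minus strand, hg19) was the only Sprouty gene to pass. SPRY2 protein is a docking protein that binds GRB2 and the ubiquitin ligase CBL. The 4 h replicates had 1975 and 2061 normalized counts, and the 8 h replicates 2511 and 2505. The 8 h libraries were nearly equal and both above those of 4 h. The log2 fold change was 0.31 (standard error 0.08, edgeR adjusted p = 0.00257), with an interval from 0.16 to 0.47. This call was the weakest of the 3. Without replicate 1 of 4 h the adjusted p was 0.067, and after a correction for the trend of fold change with mean expression it was 0.0612, with a log2 fold change of 0.19.

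SPRY4 (chromosome 5, 141689992 to 141706020, minus strand), a Sprouty protein that also acts on the RAS-RAF step, did not pass. The 4 h replicates had 347.3 and 384.4 normalized counts, and the 8 h replicates 394.8 and 346.7. The times overlapped fully, and the 95% interval of the fold ran from 0.86 to 1.20 (log2 fold change 0.02, edgeR adjusted p = 0.894). Counts of SPRY1 (chromosome 4, 124317950 to 124324915, plus strand) were low, with 34 and 32 reads at 4 h, and later 28 and 31. Its normalized counts were 30.5, 29.0, 28.6 and 38.5 in the same order. The times overlapped, and at this depth the interval was wide, from a fold of 0.72 to 1.73 (edgeR adjusted p = 0.71).

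The SPRED pair, whose proteins bind neurofibromin, did not pass either. SPRED1 (chromosome 15, 38545037 to 38649450, plus strand) had 346.4 and 293.7 normalized counts at 4 h, against 347.7 and 341.7 at 8 h. Its log2 fold change was 0.11, with an interval of the fold from 0.91 to 1.28 (edgeR adjusted p = 0.506). SPRED2 (chromosome 2, 65537985 to 65659771, minus strand) had 681.1 and 686.3 at 4 h and 636.1 and 658.5 at 8 h. Both of its 8 h libraries were below those of 4 h, but the gap was small (log2 fold change −0.08, interval of the fold from 0.83 to 1.08, edgeR adjusted p = 0.518). Over all genes, the libraries of the times did not overlap in 69.7%, with 34.8% above and 34.9% below at 8 h, so such a separation is ordinary in these data. Of the 9 genes, 3 lay above (SPRY2, PHLDA1 and ETV5) and 2 below (ERRFI1 and SPRED2).

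The ETS factors, which turn ERK signals into transcription, did not pass the test. ETV5 (chromosome 3, 185764103 to 185828107, minus strand) had 1248 and 1205 normalized counts at 4 h and 1294 and 1275 at 8 h. With a log2 fold change of 0.07 and an interval of the fold from 0.93 to 1.18, any change larger than this was outside the interval (edgeR adjusted p = 0.542). ETV4 (chromosome 17, 41605212 to 41656988, minus strand) had 92.4 and 103.3 at 4 h, against 67.5 and 101.9 later. The 8 h replicates were far apart, and replicate 2 of 8 h fell within the range of 4 h, so no direction of change can be given for ETV4 (log2 fold change −0.23, interval of the fold from 0.63 to 1.17, edgeR adjusted p = 0.43). Only changes beyond this interval were outside what the data allow. ETV4 overlaps DHX8 on the opposite strand, which had 617 to 787 reads per library, and the use of strand in counting is not given in the sources used here, so the small counts of ETV4 are uncertain.

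**Figure D2:**
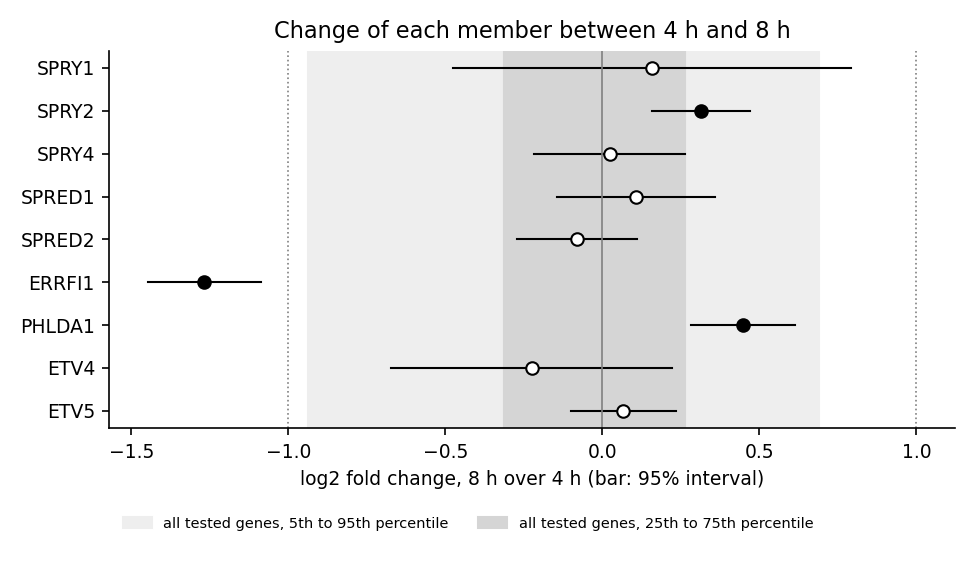
Log2 fold change of 8 h over 4 h (horizontal axis) for each of the 9 genes, with bars for the 95% interval, filled points for an adjusted p below 0.05, dotted lines at −1 and 1, and grey bands for the spread of all tested genes. ERRFI1, at −1.27, lies left of the band that holds the percentiles 5 to 95 of all genes (−0.94 to 0.69), and the other 8 lie inside it.

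The median log2 fold change of the 9 genes was 0.07, against 0.00 over all genes. The percentiles 25 and 75 of all genes were −0.31 and 0.26. The 6 that did not pass were between −0.23 and 0.16 and inside this range. The 3 genes that passed were the 3 with the most reads, with mean normalized counts of 2263 (SPRY2), 2959 (ERRFI1) and 3346 (PHLDA1), and standard errors from 0.08 to 0.09 on the log2 scale. The standard error was 0.30 for SPRY1 and 0.21 for ETV4. Among all genes with a mean of 1000 or more, 55.0% passed, against 41.3% from 100 to 1000 and 22.3% under 100. ETV5, with a mean of 1255, had a standard error of 0.08, like that of PHLDA1, and did not pass.

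Ratios within a library do not depend on normalization between libraries. PHLDA1 had 0.67 and 0.68 times the reads of ERRFI1 at 4 h, and 1.97 and 2.52 times at 8 h. The order of this pair was therefore turned round in every library of the later time. SPRY2 had 5.69 and 5.36 times the reads of SPRY4 at 4 h, against 6.36 and 7.23 times in the 8 h replicates, higher in each of them. Against SPRY1, which had 28 to 34 reads per library, the times overlapped. SPRY2 had 64.7 and 71.0 times its reads at 4 h and 87.7 and 65.0 times at 8 h, and the ratio of SPRY4 to SPRY1 overlapped as well. SPRED1 had 0.51 and 0.43 times the reads of SPRED2 at 4 h, against 0.55 and 0.52 times in the 8 h replicates. ETV5 had 13.5 and 11.7 times the reads of ETV4 at 4 h, against 19.2 and 12.5 times later. In these last ratios the times were separated by less than the replicates were. With 2 libraries per time, an exact permutation test cannot give a p below 0.333, so the ratios were not tested.

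Together the 9 genes held 0.131% and 0.123% of all reads at 4 h and 0.109% in both libraries at 8 h. The fall of this share was that of ERRFI1, whose part in the reads of the 9 genes went from 36.5% and 34.6% to 17.2% and 14.7%. Without ERRFI1, the normalized sum of the other 8 amounted to 7693 and 7449 in the 4 h libraries, and to 8953 and 9319 in those of 8 h. Most of that gain was in PHLDA1, whose mean normalized count went from 2829 to 3863, and in SPRY2, from 2018 to 2508. The remaining 6 did not pass, and of these SPRED2 and ETV4 had lower means at 8 h. PHLDA1 held 24.5% and 23.6% of the reads of the 9 genes at 4 h and 34.0% and 37.1% at 8 h, a share that also depends on the fall of ERRFI1.

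Levels of different genes were compared as TMM-normalized CPM per kilobase of the Ensembl canonical transcript. ERRFI1 was the most abundant at 4 h, at 141 ± 11.7 (SD, n = 2), and the third at 8 h, at 58.5 ± 6.14 (SD, n = 2). SPRY2 went from the second place, at 92.1 ± 2.76, to the first, at 114 ± 0.19 (SD, n = 2 each). PHLDA1 stood at 49.9 ± 3.55 and then at 68.1 ± 4.72 (SD, n = 2 each). The remaining genes kept their order at both times, namely ETV5 (31.3 at 4 h and 32.8 at 8 h), SPRED2 (15.8 and 14.9), SPRY4 (7.78 and 7.89), SPRED1 (4.59 and 4.95), ETV4 (4.37 and 3.78) and SPRY1 (1.19 and 1.35). Neighbours in this order did not overlap between libraries, except SPRED1 and ETV4 at 4 h. Reads across exon junctions were lost in mapping, and these levels were not corrected for it. The canonical transcript of ETV4 has 13 exons in 2335 bases, against 7 in 7270 bases for SPRED1, so the order of these neighbours is uncertain.

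**Figure D3:**
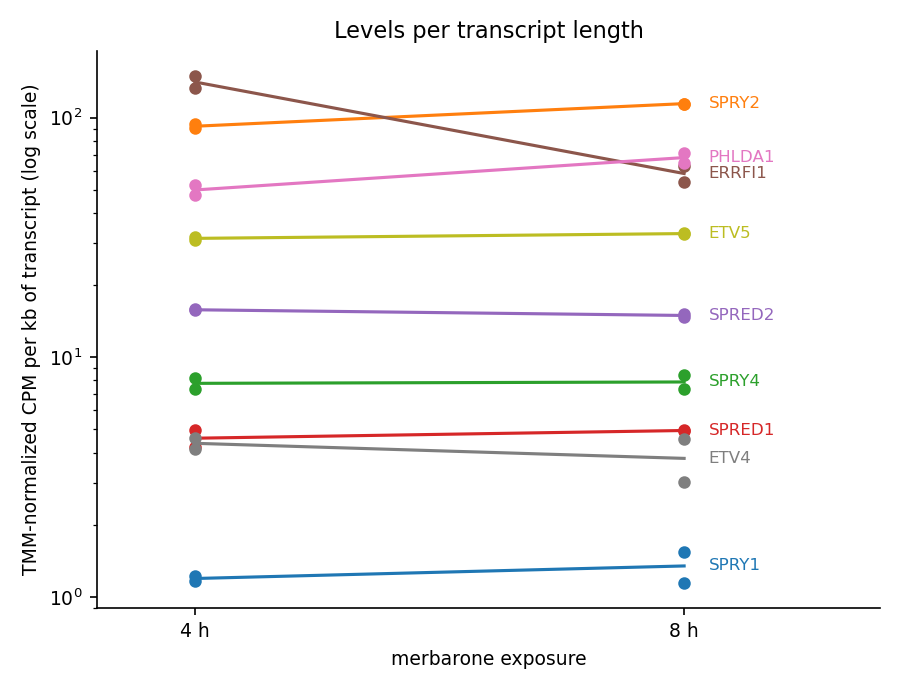
TMM-normalized CPM per kilobase of transcript (log axis) at 4 h and 8 h, with points for libraries and lines joining the means of each time. ERRFI1 crosses SPRY2 and PHLDA1, falling from 141 to 58.5, while PHLDA1 and SPRY2 rise, to 68.1 and 114, and the 6 genes that did not pass keep their order.

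Members of a family differed widely in level. At 8 h, SPRY2 was at 114 per kilobase, SPRY4 at 7.89 and SPRY1 at 1.35. By the mean over the 4 libraries, SPRY2 was above 95.2% of the 12241 tested genes with a known transcript length, and SPRY1 above 12.2%. The longest annotated transcript of SPRY2 is 2708 bases against 2286 for the canonical one, and with it SPRY2 would stand at 77.7 at 4 h and 96.6 at 8 h, in the same places.

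The 9 genes shared no single kind of gene structure. SPRY2, PHLDA1 and SPRY1 were compact, with spans of 5151, 6330 and 6966 bases, and SPRED1 and SPRED2 extended over 104414 and 121787 bases. ERRFI1 spans 21906 bases. Over all genes, the median log2 fold change was 0.04 in the shortest of 5 equal groups by span, up to 10.7 kb, and 0.02 in the longest, from 101.6 kb, with the other groups between −0.03 and −0.01. The PHLDA1 span also holds the antisense gene PHLDA1-AS1, and the spans of SPRY4, ERRFI1, SPRED2 and ETV5 each meet an annotated long non-coding gene that the count files do not list by that symbol. The gene within SPRED2 is on its own strand, as is DGKG, which meets ETV5 and had 1 to 3 reads per library, and the others are antisense. How reads were divided between such genes is not given in the sources used here.

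Genes with the most similar profile over the 4 libraries were sought among 9378 others with a mean count of at least 100. For ERRFI1 they were PIK3R3 and PBK, with log2 fold changes of −1.25 and −1.25 and a root mean square difference of 0.04 in centred log2-CPM. For PHLDA1 they were ABHD14B and PLXNA2 (difference 0.010 and 0.011), and for SPRY2 SEC13 and HK1 (0.0054 and 0.0084). For genes that did not pass they were PHC2 and CLEC16A (SPRY4), OSBPL6 and API5 (SPRED1), and ERAP1 and AIMP2 (ETV5). With 4 libraries, such neighbours share a fold change and little else can be read from them.

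The rest of the pathway was followed in 8 lists fixed by name, with 74 genes, of which 68 were tested. Of these, 26 were higher, 9 lower and 33 did not pass at the same threshold, which is 51.5% passed. Over all genes tested, 38.8% passed, and among those with a mean normalized count of 1000 or more, or from 100 to 1000, the shares were 55.0% and 41.3%. The share passed in the lists lies between these last values. By direction, 19.9% of all genes were higher and 18.8% lower. From 100 to 1000 these shares were 20.3% and 21.0%, and from 1000 they were 40.2% and 14.8%. With library size alone the split in the lists was 20 higher and 14 lower, and with DESeq2 21 higher and 7 lower. Most of the changes were below the threshold of a DEG, which only GAB2 reached. The median of all 68 was 0.18.

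Close relatives of the 9 genes did not move as a family. Of 5 relatives, SPRY3 had no read in any library and was not tested. ETV1, the third PEA3 factor, fell from 320.4 and 267.4 normalized counts at 4 h to 137.0 and 175.2 at 8 h (log2 fold change −0.92, standard error 0.15, edgeR adjusted p = 9.71e-05). PHLDA3, a relative of PHLDA1 and a known target of p53, rose from 2876 and 2759 to 4037 and 4734 (log2 fold change 0.64, standard error 0.08, edgeR adjusted p = 5.82e-06). SPRED3 and PHLDA2 did not pass, with log2 fold changes of 0.09 and 0.32. ETV1, ETV4 and ETV5 thus had log2 fold changes of −0.92, −0.23 and 0.07, of which only that of ETV1 passed.

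Other outputs of ERK were divided as well. A published signature of MAPK activity counts 10 genes, of which PHLDA1, SPRY2, SPRY4, ETV4 and ETV5 belong to the group described here. Of the other 5, DUSP4, a nuclear phosphatase of ERK, rose from 763.7 and 816.8 normalized counts to 1396 and 1506 (log2 fold change 0.88, edgeR adjusted p = 2.07e-07). EPHA2, an ephrin receptor, rose from 7421 and 7371 to 10640 and 10338 (log2 fold change 0.50, edgeR adjusted p = 8.92e-06). CCND1, which encodes cyclin D1, fell from 8791 and 8325 to 5651 and 5893 (log2 fold change −0.57, edgeR adjusted p = 3.58e-06). DUSP6, the cytosolic phosphatase of ERK, and EPHA4 did not pass, with log2 fold changes of 0.25 and 0.23. Over the 10 genes of the signature, 4 thus rose, 1 fell and 5 did not pass. Over all genes tested, 19.9% were higher and 18.8% lower, and of those with a mean normalized count of 1000 or more, 40.2% were higher.

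Upstream of ERK, the core of the cascade was mixed, with 4 of 16 tested genes higher, 3 lower and 9 not passed. With library size alone 2 were higher and 5 lower, and with DESeq2 2 were higher and 3 lower. The shares over all genes tested were 19.9% higher and 18.8% lower. The largest rises were those of MAP2K2 (MEK2), at a log2 fold change of 0.49, HRAS, at 0.45, and ARAF, at 0.28. RPS6KA1, at −0.64, and RPS6KA3, at −0.48, were among the falls. MAPK3, which encodes an ERK kinase, did not pass, at 0.20. Among 8 tested receptors, FGFR1 rose by 0.34 and ERBB4 fell by 0.74 on the log2 scale. ERBB4 had only 29 to 70 reads per library (standard error 0.26, edgeR adjusted p = 0.0316), and DESeq2 called 0 of these receptors lower. EGFR and ERBB2, the main targets of the ERRFI1 protein, did not pass, at −0.10 (edgeR adjusted p = 0.366) and −0.14 (edgeR adjusted p = 0.196).

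Of all genes, 19.9% were higher and 18.8% lower, and of those with a mean of 1000 or more, 40.2% were higher. Counts in lists this small are given beside these shares without a test. Of 12 adaptors and exchange factors, 6 rose and 0 fell by edgeR's adjusted test, by Limma-Voom and by DESeq2, and 0 were lower at an unadjusted p below 0.05, but with library size alone or the correction for the trend with expression 5 rose and 1 fell. GAB2, a docking protein for SHP2, rose from 704.5 and 784.2 normalized counts to 1402 and 1602 (log2 fold change 1.01, standard error 0.09, edgeR adjusted p = 8.64e-08). FRS2, at 0.56, and CBLB, at 0.49, followed. Of 7 tested RAS GTPase-activating proteins, 4 rose (3 with library size alone or with DESeq2). The rises were led by RASAL2, from 621.9 and 594.7 to 1058 and 1077 (log2 fold change 0.81, edgeR adjusted p = 7.12e-07), RASA2, at 0.76, and DAB2IP, at 0.40. NF1, the partner of the SPRED proteins, was at 0.03 (edgeR adjusted p = 0.851).

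Among the 8 ETS and CIC factors, 5 rose (4 with library size alone or with DESeq2) and 3 did not pass. Of all genes, 19.9% were higher, with 20.3% of those with a mean of 100 to 1000 and 40.2% from 1000. ERF, an ETS repressor that ERK moves out of the nucleus, rose by a log2 fold change of 0.64, ELK1 by 0.54 and ETV3 by 0.50. CIC, the repressor of ETV4 and ETV5 that ERK relieves, was higher as well, at 0.44 (edgeR adjusted p = 0.000383). Of the 8 binding and turnover partners, 3 rose (TESK1 at 0.63, DYRK1A at 0.44 and SIAH2 at 0.28) and 3 fell. With library size alone 2 rose and 4 fell, and with DESeq2 2 rose and 2 fell. DET1 fell by 0.95 and COP1 by 0.44 on the log2 scale, both parts of a ubiquitin ligase for ETS factors of the PEA3 type. CAV1, which binds Sprouty proteins, fell by 0.34.

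**Figure D4:**
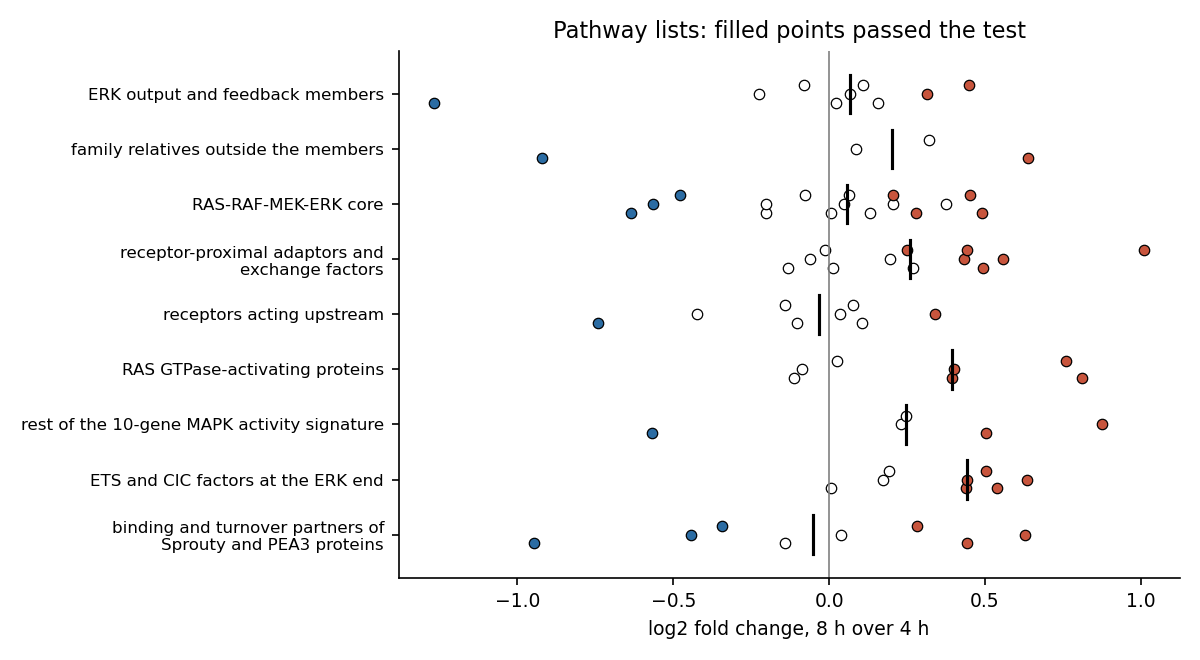
Log2 fold change of 8 h over 4 h (horizontal axis) of the tested genes in the 9-gene group and in the 8 other lists, with filled points for an adjusted p below 0.05 (red higher, blue lower), open points for the rest, and a bar for the median. The adaptor, GTPase-activating and ETS lists have no gene that passed as lower under TMM, and ERRFI1 is the leftmost point.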

How the data were processed

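The authors mapped single reads to hg19 with Bowtie (1.2.0 in the submitters' processing notes), kept reads with a single position, and deposited raw counts per gene of 4 libraries. The annotation and counting tool are not given in the sources used here. Reads that span exon junctions are lost by this mapping. The 9 genes and all lists were chosen with earlier results of these data known. Symbols came from RefSeq (GRCh38.p14; 23308 of 23459 genes) and positions from GENCODE on GRCh37, the assembly of hg19.

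The 12559 genes whose CPM exceeded 1 in 2 libraries or more were normalized by TMM and tested across time with the quasi-likelihood test of edgeR 4.0.16 (R 4.3.3), with Benjamini-Hochberg adjustment. Standard errors are the log2 fold change divided by the square root of F. Limma-Voom (limma 3.58.1), the test of the paper, DESeq2 1.42.0, other scalings, filters and thresholds, a replicate block and leaving out each library were alternatives. On simulated counts for this comparison over 12559 genes, 95.5% of 200 genes changed by a log2 fold change of 1.5 were recovered, with 10 false calls. In the data 4867 genes passed, and PHLDA1 and SPRY2 changed by 0.45 and 0.31. The simulation did not cover changes that small or that many. Replicates differed beyond sampling noise (chi-square per degree of freedom 2.67 at 4 h and 3.84 at 8 h).

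Besides the 9 genes, those named were the 3 largest changes per direction that passed in each list and the 2 nearest profiles of genes with a mean count of at least 100. Listed genes that did not pass, CIC and the overlapping genes were named after their values were seen. The planned protein comparison was not made. Some genes that this rule selects are not reported here.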

Additional observations from a re-analysis of the deposited data

How the results depend on the processing

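The 3 calls (ERRFI1 lower, PHLDA1 and SPRY2 higher) were made by edgeR, Limma-Voom and DESeq2, with library size alone or RLE factors, with CPM filters of 0.5 and 2 or no filter, and at an adjusted p below 0.01. With glmTreat, which tests for a change beyond a log2 fold change of 1, 0 of the 9 genes and 0 of the pathway-list genes passed, and at an unadjusted p below 0.05 it gave 1 and 0. Among all genes this test left 84. With the correction for a trend of fold change with expression, 2 of the 9 passed, without SPRY2. Leaving out a library gave 2 to 3 of the 9 and 25 to 34 pathway-list genes against 35, where the remaining library of a time is assumed to vary like the other time, and the number of all genes passing fell from 4867 to 3114 without replicate 1 of 4 h and to 3141 without replicate 2 of 4 h. Genes lower among all tested were 2367, and 1503 with DESeq2.

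The sign changed for genes that had not passed. Of the 8 such changes, the log2 fold change was −0.083 for SPRY4 and −0.039 for ETV5 with library size alone, and −0.031 for ETV5 with the trend correction. The others came from leaving out a library, with ranges from −0.055 to 0.37 for SPRY1, −0.078 to 0.11 for SPRY4, −0.0056 to 0.22 for SPRED1 and −0.54 to 0.058 for ETV4. Where the sign changed, the adjusted p was between 0.605 and 0.985, and the cause was not tested. Library size alone moved the median of all genes to −0.11.

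With the replicate number as a block, 3 of the 9 genes and 39 pathway-list genes passed, against 35, and 5493 of all genes, against 4867. Deviations of same-numbered libraries had a correlation of 0.05 over all tested genes and 0.12 over the 9379 that averaged 100 counts or more. The labels do not say that a number marks a shared culture or day, and with 2 pairs the numbers were not taken as pairs.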
